A study of Mus musculus with 166 samples.

Results

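The potassium channel genes of the mouse are the genes whose symbols start with Kcn. In the cerebellum they were followed as the 82 members, of 98 such symbols in the count table, that had at least 0.5 CPM (counts per 1e6 counts of the library) in at least 8 libraries. The other 16 symbols (Kcna7, Kcna10, Kcnab3os, Kcne1, Kcne3, Kcng3, Kcnh8, Kcnj1, Kcnj15, Kcnk7, Kcnk15, Kcnk16, Kcnk18, Kcnmb3, Kcnn4 and Kcnv1) did not reach that level and were not tested. Nearest to the limit, Kcnj5 reached 0.5 CPM in 10 libraries and Kcng1 in 13, and outside it Kcnab3os did so in 7 and Kcnh8 in 5. The members were 35 voltage-gated subunits, 13 inward rectifiers, 10 two-pore channels, 10 auxiliary subunits, 10 calcium- and sodium-activated channel genes and 4 genes that are noncoding or no channel, out of 16528 genes tested in all.

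The study sequenced poly(A) RNA of whole cerebellum from 166 mice of the Htt allelic series on the C57BL/6 background, to ask which transcripts follow CAG length and age. The knock-in mice were heterozygous, with a human HTT exon 1 of 20, 80, 92, 111, 140 or 175 CAG in one Htt allele (Q20, Q80, Q92, Q111, Q140 and Q175), and wild-type mice (WT) were littermates of Q20. Mice were 2, 6 or 10 months old (2m, 6m, 10m), with 8 libraries in each group of genotype and age, except 7 for Q111 and for Q140 at 10m. Per the study's methods a spontaneous expansion among Q140 mice gave rise to Q175. By the labels animals of a line shared housing, with WT and Q20 together, so that CAG length, line and housing cannot be told apart for a single line. WT and Q20 served together as controls. By the labels most groups held 4 females and 4 males, Q20 at 10m held 5 females and 3 males, Q80 at 2m 3 females and 5 males, Q111 at 10m 4 females and 3 males, and Q140 at 10m 3 females and 4 males.

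Potassium channels let potassium leave (or, for inward rectifiers, enter) the cell and so set the resting potential and end the action potential. Voltage-gated channels are tetramers of Kcna to Kcnd, Kcnh or Kcnq subunits, to which the silent subunits Kcnf, Kcng, Kcns and Kcnv (which form no channel alone) and the auxiliary Kcnab, Kcne and Kcnip proteins are added. Inward rectifiers (Kcnj) and two-pore channels (Kcnk) hold the resting potential, in glia as well as neurons, and the BK, SK and Slack channels (Kcnma1, Kcnn, Kcnt) open on calcium or sodium. In the cerebellum fast Kv3 channels (Kcnc) serve the high firing rates of Purkinje cells and interneurons and the short spikes of granule cells.

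Kcnc1, Kcnc2 and Kcnc4, genes of the Kv3 subfamily, passed the test in Q175 at 10m, so their promoter windows in RefSeq are shown first (build GRCm38.p6, from 250 bases before to 50 after the start, on the gene's strand, Kcnc2 at the most upstream of its 4 starts). Capitals mark the GC box GGGCGG on either strand, which 35.7% of all 32851 promoter windows hold. The Kcnc1 window at chr7:46396218-46396517 (+ strand, GC content 74.7%) held 3 matches, that of Kcnc2 at chr10:112269767-112270066 (+ strand, 52.7%) held 1, and that of Kcnc4 at chr3:107458849-107459148 (- strand, 66.7%) held 1.
Kcnc1: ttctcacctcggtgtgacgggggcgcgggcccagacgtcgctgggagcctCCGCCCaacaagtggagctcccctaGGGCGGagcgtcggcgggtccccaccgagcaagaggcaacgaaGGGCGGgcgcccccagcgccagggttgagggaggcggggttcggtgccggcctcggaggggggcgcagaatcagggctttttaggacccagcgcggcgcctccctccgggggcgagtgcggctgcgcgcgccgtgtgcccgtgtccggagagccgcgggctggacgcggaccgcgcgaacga
Kcnc2: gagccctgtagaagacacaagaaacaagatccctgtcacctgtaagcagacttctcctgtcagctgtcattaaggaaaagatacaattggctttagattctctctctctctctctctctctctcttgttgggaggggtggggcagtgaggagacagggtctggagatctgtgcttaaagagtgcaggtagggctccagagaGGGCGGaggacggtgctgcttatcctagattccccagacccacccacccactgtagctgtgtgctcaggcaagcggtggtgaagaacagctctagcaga
Kcnc4: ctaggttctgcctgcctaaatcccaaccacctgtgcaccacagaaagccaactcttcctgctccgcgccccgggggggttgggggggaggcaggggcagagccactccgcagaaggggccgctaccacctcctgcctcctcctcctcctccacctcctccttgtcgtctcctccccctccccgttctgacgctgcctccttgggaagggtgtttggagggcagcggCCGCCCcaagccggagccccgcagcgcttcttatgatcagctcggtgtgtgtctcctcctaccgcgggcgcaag
A match is a description of these letters only. Of the 82 members, 58 had a promoter entry in the table.

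Library totals ran from 23448953 to 43066107 counts, so that 1 CPM stood for 23.4 to 43.1 counts. Defining markers of the cerebellum were present in every library, with Gabra6 of granule cells at 487 CPM or more and Car8 of Purkinje cells at 920 CPM or more. Exonic length set 24 libraries apart (16 of 2m, 4 of 6m and 4 of 10m), in which counts fell off for genes of longer exonic sequence. Their length index was under -0.05. It is the slope of a library's log2 deviation from the median of all libraries on the log2 length of each gene's merged exons. In the 8 such libraries of 6m and 10m the median member stood at 73.5 to 103% of the age's median level of the other libraries, Kcna6 at 22.4 to 96.8% and Kcna2 at 1.29 to 41.3%. Among the lowest, the Q92 library M2 of 10m held 4.68% of the age's median level of Kcna2, 4.91% of that of Kcnma1 and 22.4% of that of Kcna6, and the Q20 library F3 of 6m held 3.11%, 7.17% and 42.3%. The sex-linked genes of 2 libraries, the Q20 library F5 of 10m and the Q80 library M2 of 2m, did not match their labelled sex. Results that rest on these libraries are given below with and without them.

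Kcnc1 and Kcnt1 were the most abundant potassium channel transcripts of the WT cerebellum at 10m. On the deposited FPKM scale (fragments divided by the length of the transcript and by the library's total, which allows genes to be compared per length), Kcnc1 (Kv3.1) had a level of 154 ± 7.5 FPKM and Kcnt1 (Slack, a sodium-activated channel) 138 ± 11.3 (SD, n = 8), with ranges that overlapped. Other abundant members were Kcnk1 (TWIK-1, a two-pore channel) at 69.5 ± 4.7, Kcnab1 (a beta subunit of Kv1 channels) at 62.7 ± 4.6, Kcnip4 (a calcium-binding subunit of Kv4 channels) at 60.5 ± 3.8, Kcnd2 (Kv4.2) at 55.5 ± 3.4, Kcnj10 (Kir4.1, the glial inward rectifier) at 54.1 ± 9.2 and Kcna1 (Kv1.1) at 50.3 ± 3.3. Among the genes named here the ranges of neighbours overlapped, except that all 8 libraries had more Kcnt1 than Kcnk1. Of the 82 members 31 were under 1 FPKM and 28 were over 10. Voltage-gated subunits made up 44.4% of the summed FPKM, auxiliary subunits 18.2%, calcium- and sodium-activated channels 15.2%, inward rectifiers 12.9% and two-pore channels 8.97%.

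**Figure D1:**
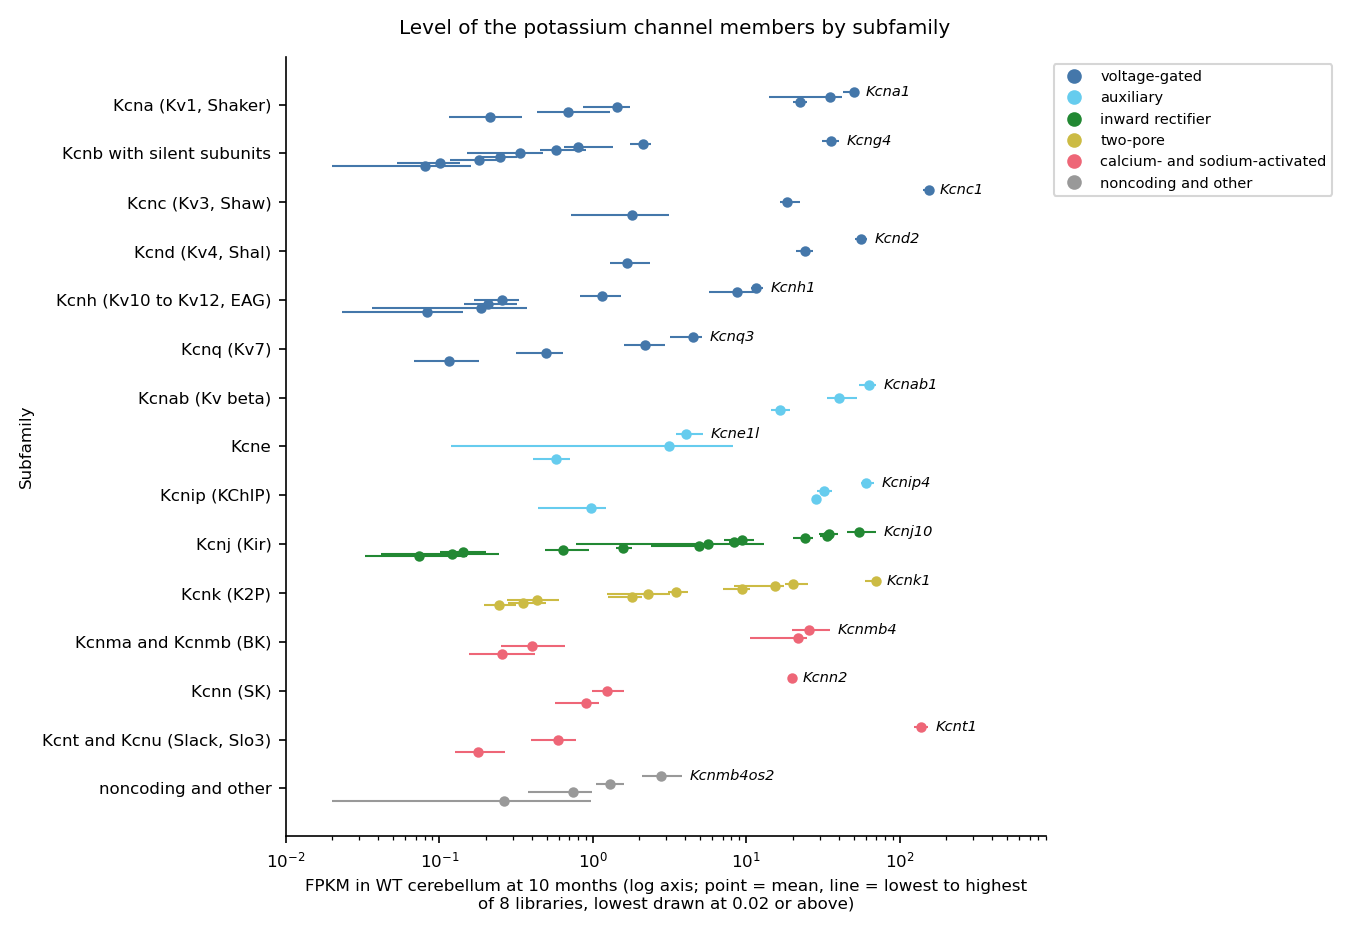
FPKM of 79 members in WT cerebellum at 10m on a log axis, by subfamily, with the mean as a point and a line from the lowest to the highest of 8 libraries (a lowest value under 0.02 is drawn at 0.02). Each subfamily spans a wide range of levels, led by Kcnc1 at 154 and Kcnt1 at 138 FPKM, and Kcne2 and Kcnj13 have the widest spread between libraries of the members over 1 FPKM.

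At 10m the cerebellum of Q175 mice had lower transcript levels of 17 potassium channel genes and higher levels of 3. The Kv3 genes Kcnc1, Kcnc2 and Kcnc4, 3 of the 4 Kcnip genes, the silent subunits Kcng4 and Kcnv2, and the glial channels Kcnj10 and Kcnk13 were among the lower ones. Kcnk2 (TREK-1), Kcnj3 (GIRK1) and Kcnb2 (Kv2.2) were higher. The 20 genes were 24.4% of the members, beside 12.8% of all genes tested (5.6% higher and 7.16% lower), by edgeR's quasi-likelihood test at an adjusted p under 0.05. The median log2 fold change of the 82 members was -0.127, with 61 below 0, and that of all genes was -0.005, with 51.7% below 0. By group, 1 rose and 11 fell among the 35 voltage-gated subunits (median -0.231), 3 fell among the 10 auxiliary subunits (median -0.15), 1 rose and 2 fell among the 13 inward rectifiers (median -0.131), 1 rose and 1 fell among the 10 two-pore channels (median 0.0254), and 0 of the 10 calcium- and sodium-activated genes (median -0.194) and 0 of the 4 others passed by edgeR or DESeq2 (3 and 0 at an unadjusted p under 0.05, beside 24.3% of all genes). Against WT alone, with 8 control libraries in place of 16, 12 of the 20 and no other member passed, beside 6.9% of all genes, and Kcna4, Kcna6, Kcnc1, Kcnc2, Kcnip2 and Kcnq5 were among those that did not. P-values measure the spread between animals, 1 to a library, and in bulk tissue fewer cells of a type and less RNA per cell cannot be told apart.

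**Figure D2:**
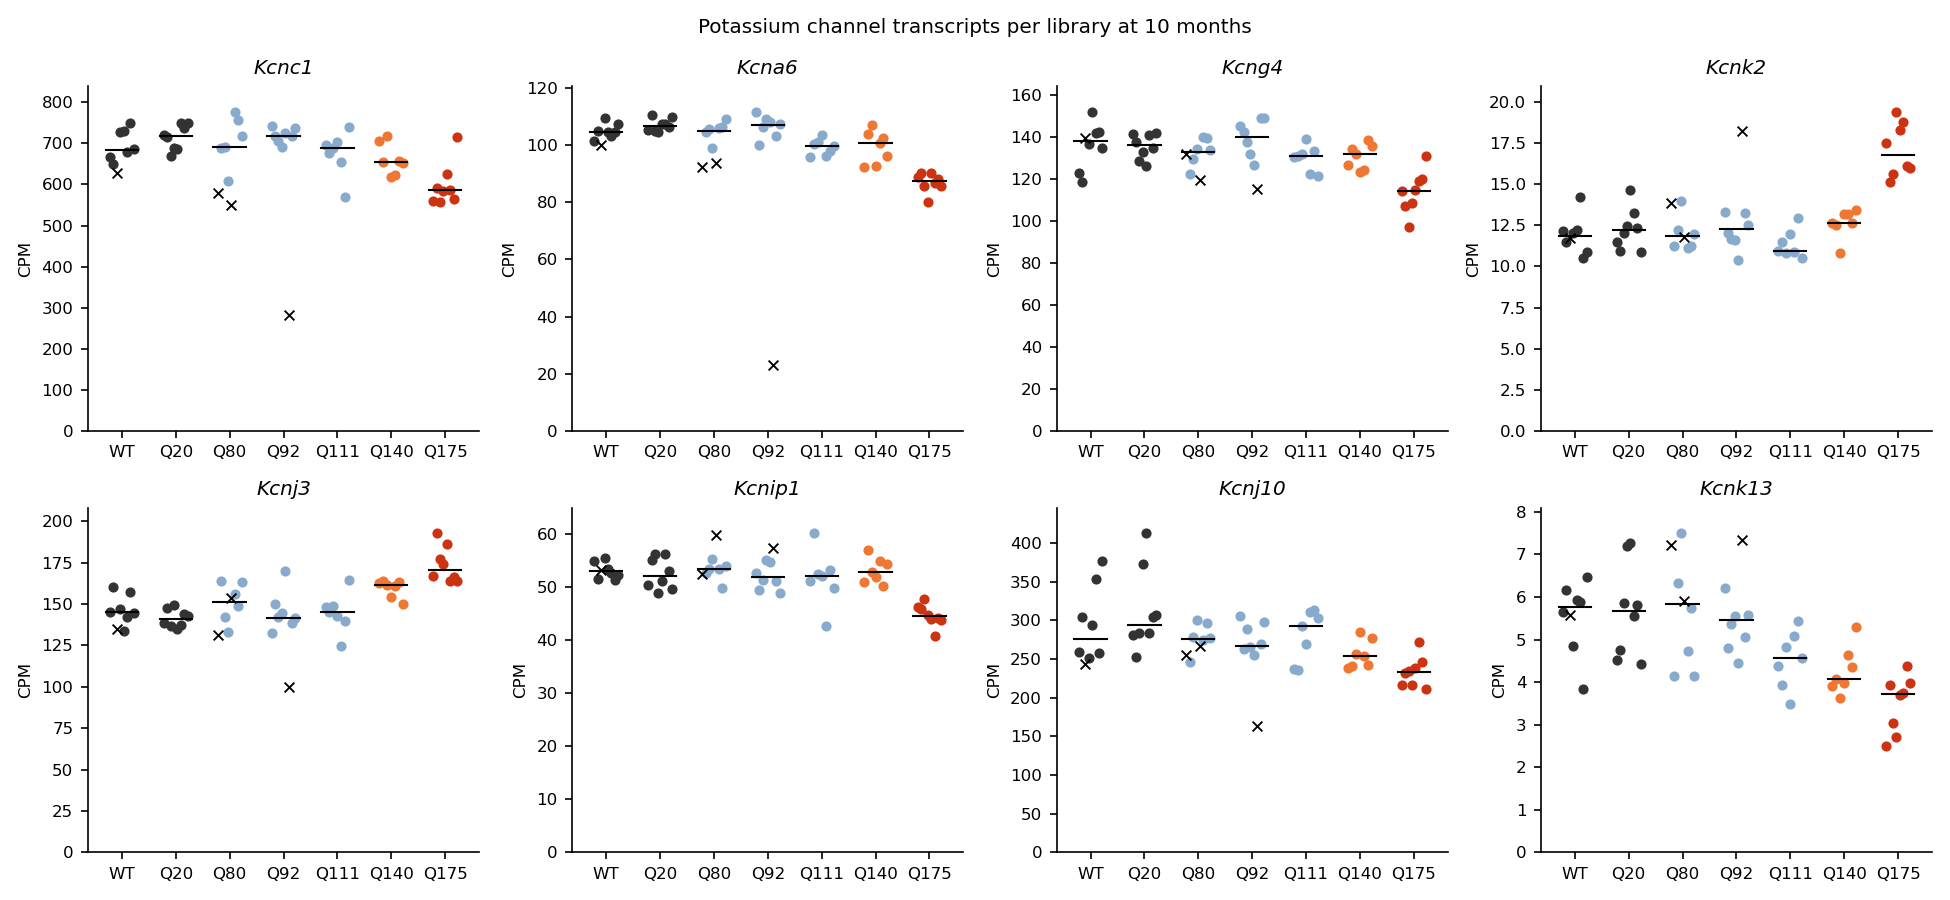
CPM per library at 10m for 8 members, by genotype (8 libraries each, 7 for Q111 and Q140). Points are libraries, crosses are libraries of low length index and short lines are medians. All 8 Q175 libraries lie below the controls for Kcna6 and Kcnip1 and above them for Kcnk2 and Kcnj3, and the lowest point of Kcnc1 and Kcna6 is the Q92 library M2.

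Kcnc1, Kcnc2 and Kcnc4 of the Kv3 subfamily were lower in Q175. Kcnc1 (ENSMUSG00000058975, chromosome 7, 46396497 to 46438704 on GRCm38), the fast delayed rectifier of granule cells and interneurons, had levels of 629, 701.5 and 750 CPM (lowest, median and highest of 16 control libraries) and 557, 586 and 715 CPM in 8 Q175 libraries. In 7 of the 8 the level was below every control, and M4 alone, at 715, lay within them. Its log2 fold change was -0.24 ± 0.074 (SE, edgeR adjusted p = 0.021). Kcnc4 (Kv3.4) had 49.8, 54.3 and 67 CPM in controls and 43.7, 46.1 and 58.4 in Q175 (-0.21 ± 0.055, edgeR adjusted p = 0.00523), with 6 below. Of Kcnc2 (Kv3.2), far lower in level, controls had 4.49, 11.4 and 25 CPM and Q175 3.52, 5.99 and 13.5. The groups overlapped, with 1 Q175 library below every control (-0.84 ± 0.27, edgeR adjusted p = 0.0257). Against WT alone Kcnc1 stood at -0.21 ± 0.092 (edgeR adjusted p = 0.184) and Kcnc2 at -0.65 ± 0.28 (0.199).

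In the other voltage-gated pore subunits the falls were fewer. Kcna6 (Kv1.6) had a narrow range of 99.8, 105 and 110 CPM in controls and of 80.1, 87.3 and 90.1 in Q175. The groups did not overlap, and the fit with all libraries of 10m gave -0.29 ± 0.096 (edgeR adjusted p = 0.032). Kcna4 (Kv1.4, an A-type channel) had 2.07, 2.56 and 6.2 CPM in controls and 1.96, 2.37 and 2.75 in Q175, and the groups overlapped (-0.42 ± 0.14, edgeR adjusted p = 0.0439). Kcna1, the most abundant Kv1 gene, had 385, 450 and 482 CPM in controls and 403, 427 and 447 in Q175 and did not pass (-0.09 ± 0.044, edgeR adjusted p = 0.19). Kcnq5 (Kv7.5), of the Kcnq genes, whose M current limits repetitive firing, had 1.95, 3.2 and 4.85 CPM in controls and 2.02, 2.6 and 3.38 in Q175, wholly within the controls' range (-0.36 ± 0.12, edgeR adjusted p = 0.0439). The only Kcnh gene past the threshold was Kcnh3 (Kv12.2, of the EAG family), at the low levels of 0.296, 0.656 and 1.14 CPM in controls and 0.0859, 0.371 and 0.752 in Q175 (-0.75 ± 0.24, edgeR adjusted p = 0.0273). Kcnh1, the highest of that family, stood at 0.11 ± 0.068. Of the 3 Kv4 genes none passed by edgeR (1 at an unadjusted p under 0.05), with Kcnd2 at -0.07 ± 0.048 and Kcnd1 (Kv4.1) at 0.19 ± 0.068 (edgeR adjusted p = 0.053, 0.0275 by DESeq2).

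The Kv2 group moved in both directions. Kcng4 (Kv6.4, a silent subunit that joins Kv2 channels; chromosome 8, 119623854 to 119635680 on GRCm38) was the member with the smallest adjusted p. Controls had 119, 137 and 152 CPM of Kcng4 and Q175 had 97.2, 114 and 131, with 5 of 8 libraries below every control (log2 fold change -0.27 ± 0.037, edgeR adjusted p = 2.21e-07). Kcnv2 (Kv8.2), another silent subunit, had 0.601, 0.953 and 1.31 CPM in controls and 0.42, 0.633 and 0.716 in Q175 (-0.65 ± 0.17, edgeR adjusted p = 0.00493). The pore subunit Kcnb2 was higher, at 0.843, 1.49 and 2.12 CPM in controls and 1.74, 2.36 and 3.08 in Q175. Of its 8 libraries 5 lay above every control (0.66 ± 0.14, edgeR adjusted p = 0.000844).

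Among auxiliary subunits the falls lay in the Kcnip genes, whose calcium-binding proteins (KChIPs) bind Kv4 channels and raise their surface number. Kcnip1 had 48.9, 52.9 and 56.3 CPM in controls and 40.7, 44.5 and 47.7 in Q175, without overlap (-0.25 ± 0.046, edgeR adjusted p = 5.17e-05). Kcnip4 had 114, 128 and 149 CPM in controls and 86.5, 111 and 116 in Q175, with 6 of 8 below every control (-0.26 ± 0.05, edgeR adjusted p = 0.000191). Kcnip2, at a low level, had 1.13, 2.28 and 3.29 CPM in controls and 0.961, 1.63 and 2.02 in Q175 (-0.50 ± 0.14, edgeR adjusted p = 0.00813). Kcnip3 (also the transcriptional repressor DREAM) stood at -0.04 ± 0.037. Of the Kv1 beta subunits none passed by edgeR or DESeq2, with Kcnab1 at -0.01 ± 0.041 and Kcnab2 at -0.19 ± 0.067 (edgeR adjusted p = 0.059), and of the Kcne genes Kcne1l stood at 0.01 ± 0.12.

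Of the inward rectifiers Kcnj3 rose, and Kcnj10 and Kcnj14 fell. Kcnj3, a subunit of the G protein-gated channel (chromosome 2, 55435970 to 55598145 on GRCm38), had 134, 143 and 160 CPM in controls and 164, 170 and 193 in Q175. Each Q175 library was above every control (0.27 ± 0.046, edgeR adjusted p = 2.03e-05). Its partners in that channel, Kcnj6 (GIRK2) and Kcnj9 (GIRK3), stood at 0.06 ± 0.21 and -0.13 ± 0.15 and did not pass. Kcnj10, which takes up potassium in astroglia and oligodendrocytes, had 243, 289 and 413 CPM in controls and 211, 234 and 273 in Q175, with 6 of 8 below every control (-0.39 ± 0.075, edgeR adjusted p = 0.000127). Kcnj16 (Kir5.1), which pairs with Kcnj10, stood at -0.12 ± 0.05 (edgeR adjusted p = 0.1). Kcnj14 (Kir2.4) passed at 0.0937, 0.294 and 0.822 CPM in controls and 0.0638, 0.19 and 0.317 in Q175 (-1.11 ± 0.31, edgeR adjusted p = 0.0102), levels of a few counts per library.

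Of the two-pore channels, Kcnk2 rose and Kcnk13 fell. Kcnk2, a leak channel opened by stretch and lipids (chromosome 1, 189207930 to 189402273 on GRCm38), had 10.5, 12 and 14.6 CPM in controls and 15.1, 16.8 and 19.4 in Q175, without overlap (0.49 ± 0.076, edgeR adjusted p = 3.5e-06). Kcnk13 (THIK-1, the leak channel of microglia) had 3.83, 5.73 and 7.26 CPM in controls and 2.49, 3.73 and 4.38 in Q175, with 5 of 8 below every control (-0.70 ± 0.12, edgeR adjusted p = 1.53e-05). Of 5 microglial markers 1 was higher in Q175 and none lower, with a median log2 fold change of 0.0468. Kcnk1, the most abundant of the group, stood at 0.11 ± 0.064 and did not pass.

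The calcium- and sodium-activated genes had no member past the threshold with all libraries. Kcnt1 had 415, 499 and 540 CPM in controls and 431, 481 and 567.5 in Q175 (-0.04 ± 0.066). Kcnn2 (SK2) stood at -0.15 ± 0.08 and Kcnma1, the BK pore subunit, at -0.27 ± 0.21, with Kcnmb4, its neuronal beta subunit, at 0.13 ± 0.13. The 2 antisense genes beside Kcnmb4 overlap it on the other strand, and without knowing whether the counting used strand, reads of Kcnmb4 and of Kcnmb4os1 and Kcnmb4os2 (0.17 ± 0.21) cannot be told apart. In total 4 of the 82 members did not overlap between Q175 and controls at 10m, namely Kcna6, Kcnip1, Kcnj3 and Kcnk2, beside 1.92% of all genes.

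Without the libraries of low length index, more members passed in Q175 at 10m, and so did more of all genes. Each age was fitted separately, so only the 4 such libraries of 10m bear on this. With all libraries 20 members had passed, beside 12.8% of all genes. Then 36 members passed (6 higher and 30 lower, 43.9% of the members), beside 26.2% of all genes, and the 20 above were among them. Among the 16 others, the Kv1 genes Kcna1 and Kcna2 fell by 0.10 and 0.22 on the log2 scale, the silent subunit Kcns2 by 0.30, Kcnma1 by 0.32 and Kcnn2 by 0.14. Kcnab2, Kcng1, Kcns3, Kcnh7, Kcnj5, Kcnj9 and Kcnmb2 were also lower, and Kcnd1, Kcnk1 and Kcnmb4 also higher. Kcna6, with an adjusted p of 0.032 before, then stood at -0.30 ± 0.027 (edgeR adjusted p = 1.17e-12). Without the Q92 library M2 alone 29 members passed, beside 21.2% of all genes, and without the library whose sex-linked genes did not match its label (Q20 F5) 17 did, all among the 20, beside 11.8%. The Q175 group held none of these libraries at 10m and the controls held 1, the WT library F3.

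The level of several cell types' markers was lower in Q175 as well. At 10m the summed level of 7 oligodendrocyte markers was at 4134, 5219 and 5568 CPM (lowest, median and highest) in WT, 4720, 5236 and 6010 in Q20 and 3163, 3877 and 4607 in Q175, and 5 of the 7 fell, beside the 7.16% of all genes that were lower. The 5 Purkinje markers summed to 3996, 4617 and 4816 in WT, 3914, 4378 and 4747 in Q20 and 3232, 3841 and 4059 in Q175, and 4 of the 5 fell. Of the 5 astroglial markers 3 fell, of the 5 granule cell markers 2, of the 5 interneuron markers 2 and of the 6 endothelial and mural markers 2. No marker of these lists was at 0 in any library. The part of cell composition in the channel results was not tested.

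Genes known from neighbouring brain varied between libraries. The summed level of Tcf7l2, Lhx9, Nrgn, Hoxb5 and Hoxa5, a list taken from earlier results of these data to mark neighbouring brain, had a median of 6.64 CPM and was over 10 CPM in 14 libraries. At 10m it was at 5.88, 7.29 and 12 CPM in WT, 5.84, 6.85 and 19.9 in Q20 and 5.59, 6.29 and 6.82 in Q175, and 3 of the 5 genes were lower in Q175. Hoxb5 was at 0 in 33 libraries and Hoxa5 in 39. The Q92 library M3 of 2m and the Q140 library F3 of 6m, with the highest sums, also stood out in Kcnc2 and Kcnip2. The former, at 140 CPM of the sum, had 51 CPM of Kcnc2 and 15.7 of Kcnip2, and the latter, at 132 CPM, had 33.6 and 15.6. The libraries next by the sum did not stand out in this way. The WT library F4 of 2m, at 29.1 CPM of the sum, had 11.3 CPM of Kcnc2 and 2.88 of Kcnip2. For the Q80 library M2 of 2m, at 22.1 CPM, the levels were 7.56 and 3.26. With the mean of these 5 genes as a covariate, an alternative added after seeing the data, 15 members passed in Q175 at 10m, 14 of the 20 above and Kcnd1 (0.22 ± 0.071), beside 10.6% of all genes. Kcna4 (-0.13 ± 0.10, edgeR adjusted p = 0.538), Kcnc2 (-0.36 ± 0.19, edgeR adjusted p = 0.293), Kcnq5, Kcnip2 and Kcnj14 were among those that then missed the threshold. Kcnc1 and Kcnc4 kept it, at -0.27 and -0.21. As 3 of the 5 genes were themselves lower in Q175, this covariate is tied to genotype. A call lost with it does not tell neighbouring brain from genotype.

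In Q175 at 6m 3 channel genes rose and 3 fell. By the name format in the labels, WT and Q175 of 6m formed a library set apart, which entered the fit, so that the 6m values set Q175 against WT and the other lines against Q20. Of the 82 members 6 passed (3 higher and 3 lower, 7.32%), beside 4.59% of all genes (2.15% higher and 2.44% lower), and all 6 also passed at 10m in the same direction. Kcnh3 fell from 0.846, 1.11 and 1.53 CPM in WT to 0.351, 0.522 and 0.69 in Q175, with Q20 at 0.668, 1.02 and 1.65 (log2 fold change -1.07 ± 0.22, edgeR adjusted p = 0.00107). Kcnb2 rose from 1.47, 1.7 and 2.24 CPM in WT to 2.46, 3.06 and 4.28 in Q175, above every control (0.84 ± 0.21, edgeR adjusted p = 0.00798). Kcnj3 rose from 130, 137 and 151 CPM in WT to 160, 166 and 182 (0.29 ± 0.063, edgeR adjusted p = 0.00198). All Q175 libraries exceeded WT here, while Q20 reached 167. Kcnk2 (0.34 ± 0.083), Kcng4 (-0.18 ± 0.038) and Kcnk13 (-0.45 ± 0.11) were the others. Without the libraries of low length index 18 members passed at 6m (3 higher and 15 lower), beside 13.3% of all genes, among them Kcnc1 (-0.23 ± 0.037). Against WT alone the order of the ages turned, with 23 members past the threshold at 6m in a fit of WT and Q175 libraries only, beside 16.6% of all genes, and 12 at 10m, beside 6.9%, so that the counts do not show which age differed in more members.

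At 2m 0 members passed for Q175 by edgeR (0 by DESeq2), beside 0.00605% of all genes. At an unadjusted p under 0.05 there were 4, or 4.88% of the members, beside 2.67% of all genes. Kcng4 had 93.4, 126 and 141 CPM in controls and 106.5, 129 and 142 in Q175 (log2 fold change 0.03 ± 0.052). For Kcnk2 the log2 fold change was 0.07 ± 0.079, and the groups overlapped for both. The groups of 2m held 16 libraries of low length index, 4 of them WT and 2 of them Q175.

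In the lines of shorter repeat 0 members passed at any age by edgeR. Of all genes 0, 0.0363 and 0.635% passed for Q140 at 2m, 6m and 10m, 0, 0.0182 and 0.115% for Q111, 0.0424, 0 and 0.817% for Q92 and 0, 0 and 0% for Q80. By DESeq2, whose shares of all genes are not given here, 1 member passed in Q140 at 6m, Kcnb2, and 0 in the other groups of these lines. At an unadjusted p under 0.05 there were 0, 10 and 17 members for Q140 (0, 12.2 and 20.7% of the members), beside 2.09, 9.58 and 8.48% of all genes. For Q111 there were 2, 12 and 2 (2.44, 14.6 and 2.44%), beside 1.07, 19.7 and 2.81%. For Q92 there were 11, 3 and 12 (13.4, 3.66 and 14.6%), beside 6.81, 3.7 and 17.9%, and for Q80 0, 3 and 10 (0, 3.66 and 12.2%), beside 1.02, 6.78 and 7.16%. The members' share was above that of all genes in Q140 at 6m and 10m, Q111 at 2m, Q92 at 2m and Q80 at 10m. It was below that of all genes in the other groups of these lines. In Q92 at 6m and Q111 at 10m the gap was smaller than the share of 1 member, 1.22%. In Q140 at 10m the members' median log2 fold change was -0.0817, with 57 of 82 below 0. Kcnj3 was at 150, 162 and 164 CPM there, between controls and Q175 (0.16 ± 0.048, edgeR adjusted p = 0.128), Kcnk13 at 3.64, 4.07 and 5.29 (-0.40 ± 0.12, edgeR adjusted p = 0.155) and Kcnb2 at 1.72, 2.06 and 2.82 (0.48 ± 0.15, edgeR adjusted p = 0.183). Without the libraries of low length index 4 members passed in Q140 at 10m, beside 2.43% of all genes, among them Kcnj3 (0.16 ± 0.044), Kcnj10 (-0.26 ± 0.071) and Kcnk13 (-0.39 ± 0.11).

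**Figure D3:**
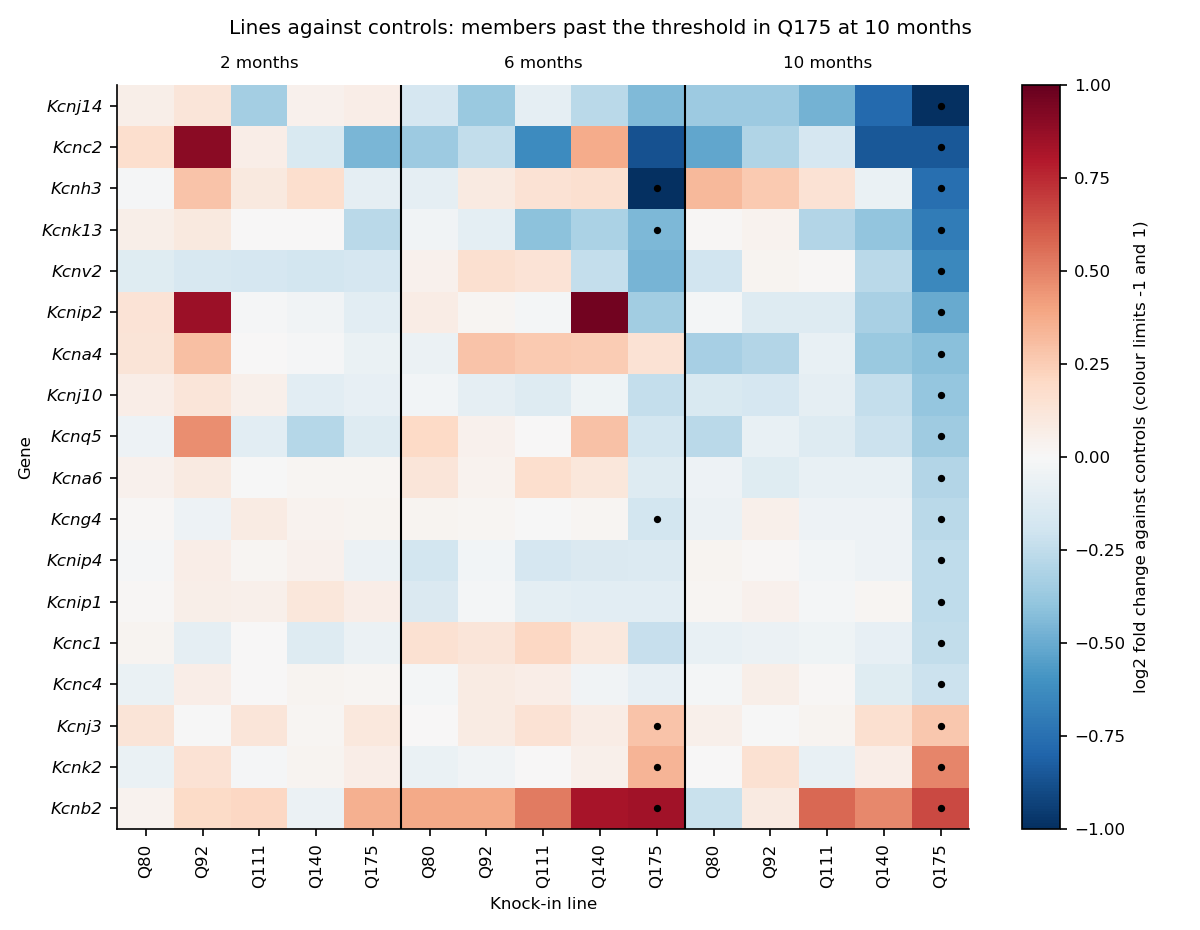
Log2 fold change against controls (WT and Q20 at 2 and 10 months, WT for Q175 and Q20 for the other lines at 6 months) of 18 of the members that passed in Q175 at 10m (rows, in the order of that value) in each line at 2, 6 and 10 months (columns). Dots mark an adjusted p under 0.05, and colour ends at -1 and 1. The dots lie in the Q175 columns only, 6 at 6 months and 18 at 10 months, and the dark cells of Kcnc2 and Kcnip2 in Q92 at 2 months and of Kcnip2 in Q140 at 6 months belong to the groups with the 2 libraries of high neighbouring brain level.

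Q175, derived from Q140, was compared with it directly at 10m. Of the 82 members 4 passed, beside 2.49% of all genes. Kcnip1 was lower in Q175 by -0.27 ± 0.054 (edgeR adjusted p = 0.00105), with 50.3, 52.9 and 57 CPM in Q140, the level of controls. Kcng4 was lower by -0.22 ± 0.043 (edgeR adjusted p = 0.00125) and Kcnip4 by -0.20 ± 0.06 (edgeR adjusted p = 0.0498), and Kcnk2 higher by 0.42 ± 0.093 (edgeR adjusted p = 0.0041). For Kcnj3, Kcnk13 and Kcnb2 the difference between both lines did not pass. Without the libraries of low length index 10 members passed, beside 7.45% of all genes, and Kcna6 (-0.21 ± 0.031), Kcns2 (-0.30 ± 0.059), Kcnc1 and Kcna1, each lower in Q175, were among those added.

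With CAG length as a number, 17 members followed it at 10m (3 higher and 14 lower), beside 8% of all genes, 6 at 6m (3 and 3), beside 5.48%, and 0 at 2m by edgeR (0 by DESeq2), beside 0.0303% (4 at an unadjusted p under 0.05, beside 3.21% of all genes). With 6m and 10m combined 18 passed (4 higher and 14 lower), beside 17% of all genes (7.9% higher and 9.12% lower). The largest combined Z values were those of Kcnk13 (-6.62), Kcnb2 (6.61), Kcnj3 (6.29), Kcng4 (-5.25), Kcnk2 (5.21) and Kcnj10 (-5.12), then Kcnip4 (-4.80), Kcnv2 (-3.89), Kcnj14 (-3.84) and Kcns3 (-3.80). At 10m Kcnk13 changed by -0.39 ± 0.073 log2 units per 100 CAG (edgeR adjusted p = 0.000191) and Kcnb2 by 0.43 ± 0.090 (edgeR adjusted p = 0.000782). Without the Q175 libraries the slopes of 2 members passed with both ages combined, beside 0.92% of all genes, and of 0 at 6m or at 10m. Between ages, the slope of Kcng4 alone differed, from 0.03 ± 0.029 at 2m to -0.12 ± 0.026 at 10m (difference -0.148 ± 0.038, edgeR adjusted p = 0.0355), beside 0.52% of all genes. It lost the call with RLE factors, with no filter on low counts, without the WT libraries and without the Q175 libraries. Between males and females 0 slopes differed at 10m by edgeR (0 by DESeq2), beside 0.0242% of all genes (0 at an unadjusted p under 0.05, beside 1.17%). Between Q20 and WT at 10m likewise 0 members passed by edgeR (0 by DESeq2), beside 0.00605% (0 at an unadjusted p under 0.05, beside 0.938%).

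Age was compared in the controls alone. The leading numbers of the library names in the labels form separate ranges at 2m and 10m. Age and library series can thus not be told apart, and no label says what the ranges stand for. From 2m to 10m, 20 members rose and 13 fell in WT and Q20, 40.2% of the members, beside 38.7% of all genes (16.1% higher and 22.6% lower), a share near the background. Voltage-gated subunits made up 14 of the 20 that rose and 35 of the 82 members. All 4 auxiliary genes that passed fell. Kcnh3 fell from 0.94, 1.35 and 2.27 CPM at 2m to 0.296, 0.656 and 1.14 at 10m (-1.03 ± 0.14, edgeR adjusted p = 5.18e-06). Kcnk1 fell from 165, 188 and 252 CPM to 135, 160 and 174 (-0.29 ± 0.047, edgeR adjusted p = 4.5e-05), and Kcnmb4 from 35.9, 41.1 and 76.8 to 26.5, 33.4 and 47.3 (-0.43 ± 0.09). Kcna6 rose from 84.4, 95.8 and 101 CPM to 99.8, 105 and 110 (0.17 ± 0.026, edgeR adjusted p = 3.04e-05). Kcnip3 (-0.17 ± 0.042), Kcnk12 (THIK-2, a silent two-pore channel, -0.51 ± 0.12) and Kcnmb4os2 (-0.58 ± 0.15) also fell.

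The age groups differed in the length index, with 4 of 16 control libraries of 2m and 1 of 16 of 10m low. Without those libraries 30 members passed (17 higher and 13 lower), beside 33.9% of all genes (16.2% higher and 17.7% lower). With the index as a covariate 21 did (7 higher and 14 lower), of which 11 were among the 33, beside 25.5% of all genes (11.5% higher and 14.1% lower). The members' split of directions turned, while more of all genes were lower than higher in each of these fits. Of the 20 members that rose with all control libraries, 4 rose in all 3 fits, among them Kcna6, Kcnc2 and Kcnc4. Of the 13 that fell, 7 fell in all 3 fits, namely Kcnh3, Kcnip4, Kcnj9, Kcnk1, Kcnk12, Kcnmb4 and Kcnmb4os1.

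**Figure D4:**
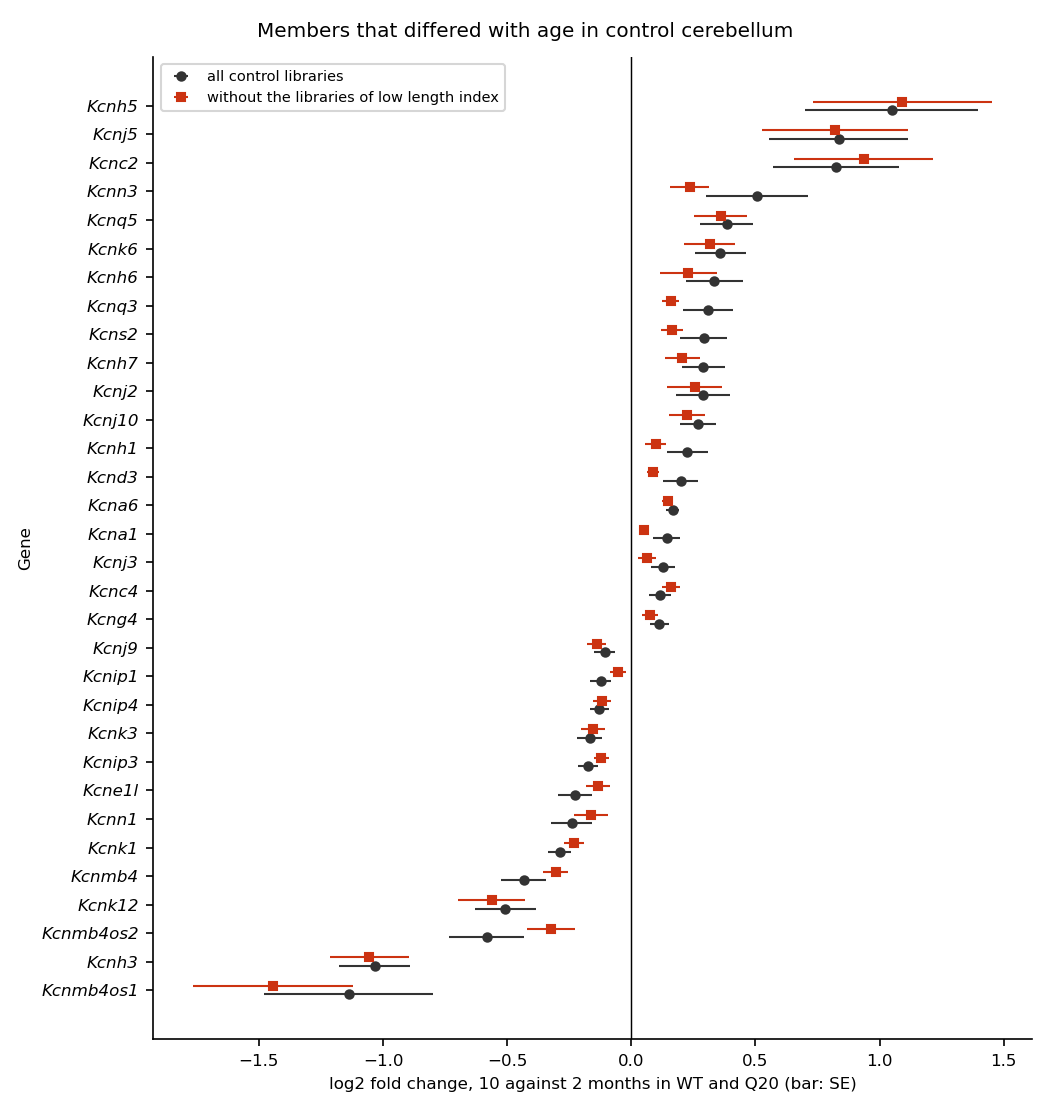
Log2 fold change (± SE) from 2 to 10 months in WT and Q20 of 32 of the members that passed, with all control libraries (circles) and without those of low length index (squares). Kcnh3 stays near -1 in both, while Kcnmb4os2 goes from -0.58 to -0.32.

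Kcne2 and Kcnj13 (Kir7.1), channel genes of the choroid plexus epithelium, differed widely between libraries. Ttr, the transthyretin gene that marks choroid plexus, split the libraries in a group of 82 under 50 CPM and a group of 84 over it, and Kcne2 had 0.0319, 0.172 and 0.467 CPM (lowest, median and highest) in the first and 0.843, 8.67 and 51.1 in the second. Kcnj13 had 0.503, 1.22 and 2.19 CPM in the first and 1.4, 10.4 and 41.5 in the second. Kcne2 stayed under the limit of 0.5 CPM for members in every library of the first group, so it is a member only through the second. Its difference in level between the 2 groups is thus tied to that choice and is no separate result. The cut at 50 CPM was set after seeing the values. For Kcne2 the relation within the second group is drawn from the same libraries that made it a member, and it describes those libraries only. Within the second group Kcne2 followed Ttr (log2 of CPM + 0.5) with Pearson's r = 0.958 and Spearman's rho = 0.944, and Kcnj13 with r = 0.939 and rho = 0.908 (permutation test, two-sided, 100000 resamples, p = 2e-05 for each, the smallest they can give, 4e-05 adjusted over 4 relations). Without the 2 libraries farthest from the median of Ttr, r was 0.951 and 0.926, and within 2m, 6m and 10m it was 0.989, 0.939 and 0.902 for Kcne2 and 0.975, 0.899 and 0.895 for Kcnj13. In the first group Kcne2 had r = 0.462 and rho = 0.397 (permutation p = 4e-05 and 0.0003, adjusted 5e-05 and 0.0003; r = 0.45 without the 2 farthest; -0.108 within 10m) and Kcnj13 r = 0.0819 and rho = 0.142 (permutation p = 0.5 and 0.2, both as adjusted). Of the Q175 libraries of 10m 4 of 8 were in the second group, of WT 5 of 8 and of Q20 7 of 8, and the differences of Kcne2 (-1.16 ± 0.92) and Kcnj13 (-1.05 ± 0.66) in Q175 did not pass.

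**Figure D5:**
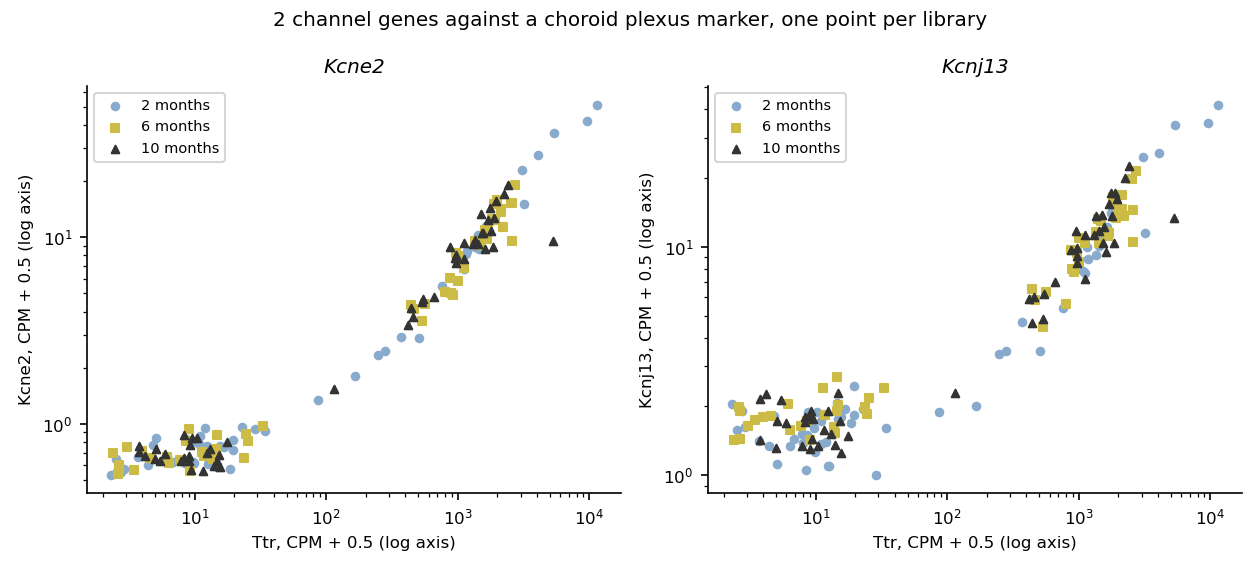
Kcne2 and Kcnj13 against Ttr, each as CPM + 0.5 on log axes, with 1 point for each of 166 libraries and a symbol for each age. Both genes stay low in the 82 libraries under 50 CPM of Ttr and rise with it in the other 84, where r is 0.958 and 0.939.

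Partners that are no Kcn genes were counted from a list of 17, of which 16 were tested. At 10m 3 of the 16 passed and at 6m 2, beside 12.8% and 4.59% of all genes. In Q175 at 10m Abcc8 (the sulfonylurea receptor SUR1, which with Kcnj11 forms a channel closed by ATP) was lower by -0.33 ± 0.088 (edgeR adjusted p = 0.00613) and its relative Abcc9 by -0.21 ± 0.071 (edgeR adjusted p = 0.0374). Cntnap2, which gathers Kv1 channels beside the node of Ranvier, was higher by 0.26 ± 0.086 (edgeR adjusted p = 0.0375). The other 13, among them the Kv4 partners Dpp6 and Dpp10 and the scaffold genes Ank3 and Dlg4, did not pass at 10m. At 6m Abcc8 was lower (-0.31 ± 0.093, edgeR adjusted p = 0.0366) and Dpp10 higher (0.24 ± 0.06, edgeR adjusted p = 0.0104). Kcnj11 (Kir6.2) itself stood at -0.16 ± 0.16 in Q175 at 10m and did not pass.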

How the data were processed

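Poly(A) RNA of 166 cerebella was sequenced by the authors, who deposited a table of expected counts (estimated counts per gene, not normalized, 83.3% of them whole numbers) and a table of FPKM (scaled to transcript length and library total, summing to 393598 to 702065 per library). Every column matched a sample, and 0 were left over. CASAVA 1.8.2 is the only tool named in the submitters' processing notes. For the aligner, counting program, build and strand setting, the answer is not given in the sources used here. Reads shared by near-identical or overlapping genes may thus be split in unknown ways. Symbols were found for 37607 of 39179 gene IDs (96%), and positions are those of the same ID on GRCm38.

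Members and lists were chosen with earlier results of these data known, the neighbouring brain list from them. Rounded counts of 16528 genes (at least 0.5 CPM in at least 8 libraries) were fitted at each age by edgeR 4.0.16 under R 4.3.3 (the two-sided quasi-likelihood F-test on TMM-scaled libraries, with p-values adjusted over all genes after Benjamini and Hochberg and a threshold of 0.05), with WT and Q20 as controls, sex and, at 6m, library set as covariates. The SE was taken as the size of a log2 fold change divided by the root of its F. CAG slopes took WT as 7, and 6m and 10m were combined by Z. Animals are the replicates. Named were the members past the threshold in Q175 at 10m and the one of highest FPKM in each subfamily, for 6m and the combined slopes up to 10 members, and for age up to 8. A few members are not reported here by name. Others were named after their values were seen. Alternatives used DESeq2 1.42.0, RLE factors, other filters, other controls and left-out libraries. The scripts were tested on simulated counts.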

Additional observations from a re-analysis of the deposited data

Results flagged for a closer look

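In groups of 8 libraries at 10m, the level of 18 called members was checked for a library far from the others in WT, Q20 and Q175. Of 54 groups 6 held one. Chance alone gives about 1 in 20 where groups are independent, but these share libraries, so an excess over chance was not tested. The Q175 library M4 stood apart in 3 of the 6 groups. It was the highest of Q175 in Kcnc1 (715 CPM) and Kcnc4 (58.4, the next at 50) and the lowest in Kcnip4 (86.5, the next at 103). The Q175 library F4 was lowest in Kcna6 (80.1 CPM, the next at 85.6). The WT library M4 was highest in Kcna4 (6.2 CPM, the next at 3.83) and the WT library M2 in Kcnk2 (14.2, the next at 12.2). The CAG slope of Kcng4 differed between 10m and 2m by -0.148 log2 units per 100 CAG in the test of the difference itself.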

How the results depend on the processing

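The 20 members called in Q175 at 10m were refitted under 12 alternatives and without each of 25 libraries. Kcnb2, Kcnc4, Kcng4, Kcnip1, Kcnip4, Kcnj3, Kcnj10, Kcnk2, Kcnk13 and Kcnv2 kept direction and call in all of these fits, and the other 10 kept direction and lost the call in at least 1. The count for Q175 at 10m was 36 when libraries of low length index were left out, beside 26.2% of all genes. It was 32 with that index as a covariate, and 12 against WT alone, beside 6.9% of all genes. It was 14 to 29 as each library was left out (14 without the Q175 library F1 or F4, 29 without the Q92 library M2, beside 21.2%). For Q175 at 6m it was 18 (beside 13.3% of all genes), 17 with the covariate and 17 without libraries of connectivity under -5. There it was also 23 against WT alone (beside 16.6%), 10 with no library set, and 6 to 7 as libraries were left out. For Q140 at 10m it was 4 (beside 2.43% of all genes), 3 and 2 in the first 3 of these settings and 0 to 0 by left-out library. For Q140 at 6m it was 1 by DESeq2. Q175 against Q140 gave 10 (beside 7.45% of all genes), 10 and 7. The slope gave 15 (beside 10.8% of all genes), 14 and 15 at 6m, and 0 without WT or without Q175. At 10m it gave 31 (beside 20.4%), 27, 11 with no filter, 10 without Q20 and 0 without Q175. Combined it gave 37 (beside 30.3%), 30, 31, 11 without WT and 2 without Q175 (beside 0.92%). Age in controls gave 21 with the covariate (beside 25.5% of all genes), 6 in WT alone and 14 in Q20 alone. The change of slope with age gave 6 (beside 2.45%), 5 and 8, and 0 with no filter, RLE factors, without WT or without Q175. The share of all genes moved between settings too, and for the other settings it is not given here. A count without that share, here and for the replicate block below, does not tell the channel genes from all genes. The cause was not tested.

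Of the named members not called, Kcnab1 changed sign without libraries of connectivity under -5 (0.000517) and against Q20 alone (0.0163), and lay between -0.0256 and 0.0171 as libraries were left out, and Kcne1l lay between -0.014 and 0.0465. With the replicate block (the number within sex as a block) 17 members passed in Q175 at 10m, 6 at 6m and 18 in the combined slope, within 1.5 times the counts reported. Same-numbered libraries deviated together about as much as other pairs (median r 0.103, 0.0732 and 0.0633 at 2m, 6m and 10m, other pairs 0.088, 0.0861 and 0.0751). These values gave no sign that the numbers pair the animals, but cannot exclude it. Kcna4, Kcnc2 and Kcnq5 lost the call under the block. At these totals a gene at 1 CPM rests on 23.4 to 43.1 counts a library, which limits the members of low level.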
